A study of Homo sapiens with 8 samples.

Results

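The canonical replication-dependent histone genes were taken as every protein-coding gene whose GENCODE 29 symbol begins with HIST1H, HIST2H, HIST3H or HIST4H, which gave 71 of the 58302 genes in the count tables. They comprised 6 genes for the linker histone H1, 17 for H2A, 18 for H2B, 15 for H3 and 15 for H4. In the genome, 55 lay in the HIST1 cluster on chromosome 6, 12 in HIST2 and 3 in HIST3 on chromosome 1, and 1, HIST4H4, on chromosome 12. RNA sequencing was done on RD cells, an established human rhabdomyosarcoma line, which is a cancer with features of immature skeletal muscle. The groups were 4 libraries of cells carrying a hairpin RNA against PROX1 (shPROX1), a homeobox transcription factor, and 4 libraries of cells carrying a scrambled hairpin (control). Both groups were therefore hairpin-bearing cells of the same line, and how many different PROX1 hairpins were used is not given in the sources used here. The series describes the 4 libraries of each group as biological replicates. The comparison asks how the histone genes stood after PROX1 silencing.

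Canonical histone genes are switched on together when DNA is copied, and supply the H2A, H2B, H3 and H4 proteins that DNA is wound around and the H1 proteins that bind the linker DNA between nucleosomes. Their mRNAs are unusual in ending in a conserved stem-loop instead of a poly(A) tail. The stem-loop binding protein SLBP holds this loop, and the U7 snRNP and a cleavage complex cut the transcript just after it. Some of these genes can also give longer, spliced or polyadenylated transcripts, for example in cells that have stopped dividing. How a library was prepared therefore decides which of these RNAs it can hold.

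The stem-loop was read from the annotated transcripts, because it is the feature that sets this family apart and that ties the counts to the question of poly(A) tails. A motif of 16 bases (GG, 3 bases of any kind, TT, any base, T, any base, A, 3 bases of any kind and CC) was searched for on the sense strand in the first 100 bases after the stop codon, in genes with at least 40 annotated bases there. It was found in 32 of 36 histone genes (88.9%) and in 32 of 18859 other protein-coding genes (0.17%), one of which was H2AFX, the variant histone that marks DNA breaks. The other 35 histone genes have no annotated 3′ UTR and could not be searched. The commonest loop, in 17 genes of the H2A, H2B and H3 classes, was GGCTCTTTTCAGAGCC. The 8 H4 genes searched with success used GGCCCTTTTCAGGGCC (5 genes) or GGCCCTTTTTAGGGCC (3 genes). The examples are from 4 genes that fell after PROX1 silencing, of the H2A, H2B and H4 classes, in DNA letters of the sense strand, GRCh38, with the 16 bases of the motif in capitals and their coordinates after the gene name.
HIST3H2BB, chr1:228458538-228458553, plus strand: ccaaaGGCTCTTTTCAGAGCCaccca
HIST3H2A, chr1:228457369-228457384, minus strand: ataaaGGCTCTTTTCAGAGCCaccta
HIST1H2BD, chr6:26158587-26158602, plus strand: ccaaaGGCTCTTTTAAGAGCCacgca
HIST1H4I, chr6:27139654-27139669, plus strand: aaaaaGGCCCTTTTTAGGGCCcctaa

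The libraries held 3747090 to 4865161 counts each, of which 49803 to 65826 fell in histone genes. PROX1 itself had 33, 42, 34 and 35 counts in the shPROX1 libraries, against 85, 66, 69 and 105 counts in the control libraries. That was 8.79 ± 1.15 CPM (counts scaled by library total) with shPROX1 and 18.6 ± 2.58 CPM in control (SD, n = 4 each), a log2 change of −1.07 ± 0.15 (SE; edgeR quasi-likelihood test, Benjamini-Hochberg adjusted p = 4.89e-06), or 47.6% of control. The series' design text gives a silencing of 75%, without saying whether RNA or protein was measured, which is a deeper loss than these counts show. The muscle regulator MYOD1 was at 72.2 CPM with shPROX1 and 71.2 CPM in control. DES, the muscle intermediate filament, averaged 473 CPM with shPROX1 and 545 CPM in control. Of the 4 skeletal muscle markers, MYOG (log2 −1.32), MYH3 (−0.94) and DES (−0.18) fell and MYOD1 was not called. PTPRC, EPCAM and PECAM1, which mark leukocytes, epithelium and endothelium, were at 1.41 CPM or less in every library.

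The summed level of the histone genes was slightly lower after PROX1 silencing, and none of the 56 genes that could be tested rose. Summed over the 71 genes, histone counts made up 1.29%, 1.32%, 1.33% and 1.32% of all counts in the shPROX1 libraries, against 1.51%, 1.41%, 1.40% and 1.35% in the control libraries. The groups did not overlap, with means of 1.32% ± 0.0149 with shPROX1 and 1.42% ± 0.0654 in control (SD, n = 4 each). The log2 ratio of the means was −0.11, which puts the shPROX1 sum at 92.8% of control. This gap depended in part on how libraries were scaled and on 1 library: with TMM library sizes the ratio was −0.09 and the groups overlapped, and without control replicate 1 it was −0.08. In bulk RNA, fewer cells making histone mRNA and less histone mRNA per cell cannot be told apart.

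The sums of all 5 classes were lower in the shPROX1 mean. H1 genes summed to 1526, 1522, 1615 and 1514 CPM in the shPROX1 libraries, against 1807, 1700, 1625 and 1708 CPM in the control libraries, a log2 ratio of −0.15. H2B sums were 3628, 3692, 3797 and 3720 CPM with shPROX1 and 4111, 3850, 3946 and 3887 CPM in control (−0.09), and H3 sums were 2961, 3007, 3034 and 3026 CPM with shPROX1 and 3419, 3187, 3192 and 3113 CPM in control (−0.10). In these 3 classes every shPROX1 library was below every control library. With TMM library sizes the H1 groups overlapped, and without the most abundant gene of each class the H1 and H2B groups did. The H2A sum averaged 2394 ± 42.8 CPM with shPROX1 and 2578 ± 147 CPM in control (log2 ratio −0.11), and the H4 sum 2500 ± 38.5 CPM with shPROX1 and 2716 ± 238 CPM in control (−0.12). In both classes control replicate 4 lay within the range of the shPROX1 libraries or below it. The share of each class in the histone counts differed little between groups: H2B took 28.2% of histone counts with shPROX1 and 27.9% in control, H3 took 22.9% with shPROX1 and 22.8% in control, and H4 took 19.0% with shPROX1 and 19.1% in control. H2A took 18.2% in both, and H1 took 11.7% with shPROX1 and 12.1% in control.

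**Figure D1:**
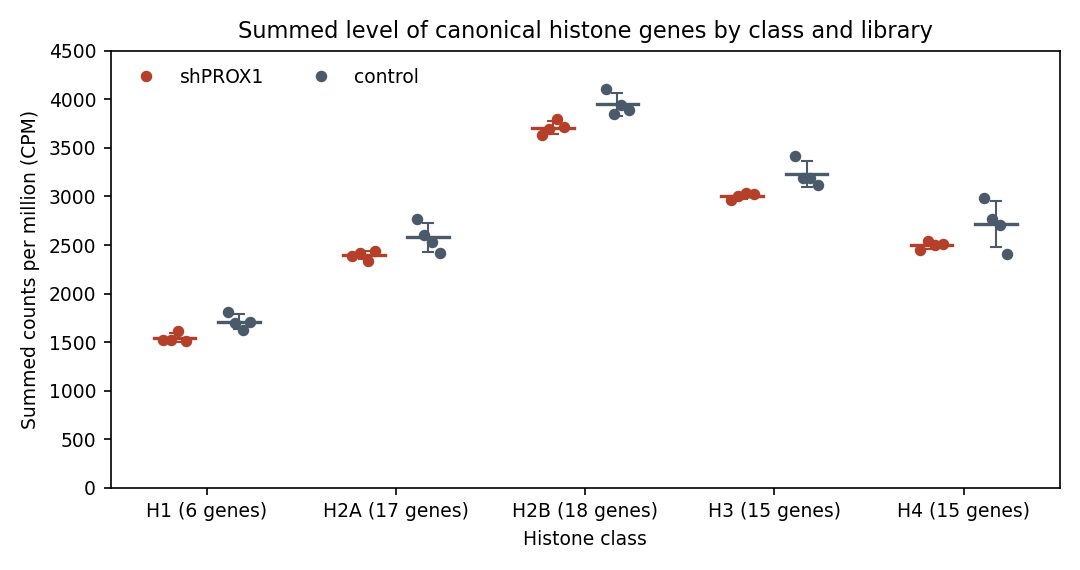
Summed CPM of the genes of each histone class, with 1 point per library, shPROX1 in red on the left and control in grey on the right, a line at the mean and bars of 1 SD (n = 4 each). The mean of each class is lower with shPROX1, and the H2A and H4 points of the groups overlap.

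Gene by gene, 56 of the 71 passed the filter on low counts, with mean levels of 46.2 to 558 CPM and at least 39.6 CPM in every library (HIST1H2BN the lowest), so that none of them passed through 1 group alone. Of these 56, 14 fell (25%) and 0 rose at an adjusted p under 0.05 (edgeR quasi-likelihood test, Benjamini-Hochberg over all 12392 tested genes), and 21 had an unadjusted p under 0.05. Over all tested genes, 35.2% were called in either direction, 17.9% lower and 17.3% higher. A call rate of 25% was thus below the background for either direction and above it for falls. The direction was more uniform than the calls: 48 of 56 (85.7%) had a log2 change below 0, against 51.1% of all tested genes. That count was 36 of 56 with an offset for GC content and length, 41 without control replicate 1, and 46 to 50 in the other fits. The changes ran from −0.52 to 0.13 with a median of −0.10, where the median of all genes was −0.01. That median was −0.06 without control replicate 1 and −0.04 with the GC and length offset. Every shPROX1 library was below every control library for 13 of the 56 (23.2%, against 17.9% of all tested genes), and above for 0 (against 14.4%).

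**Figure D2:**
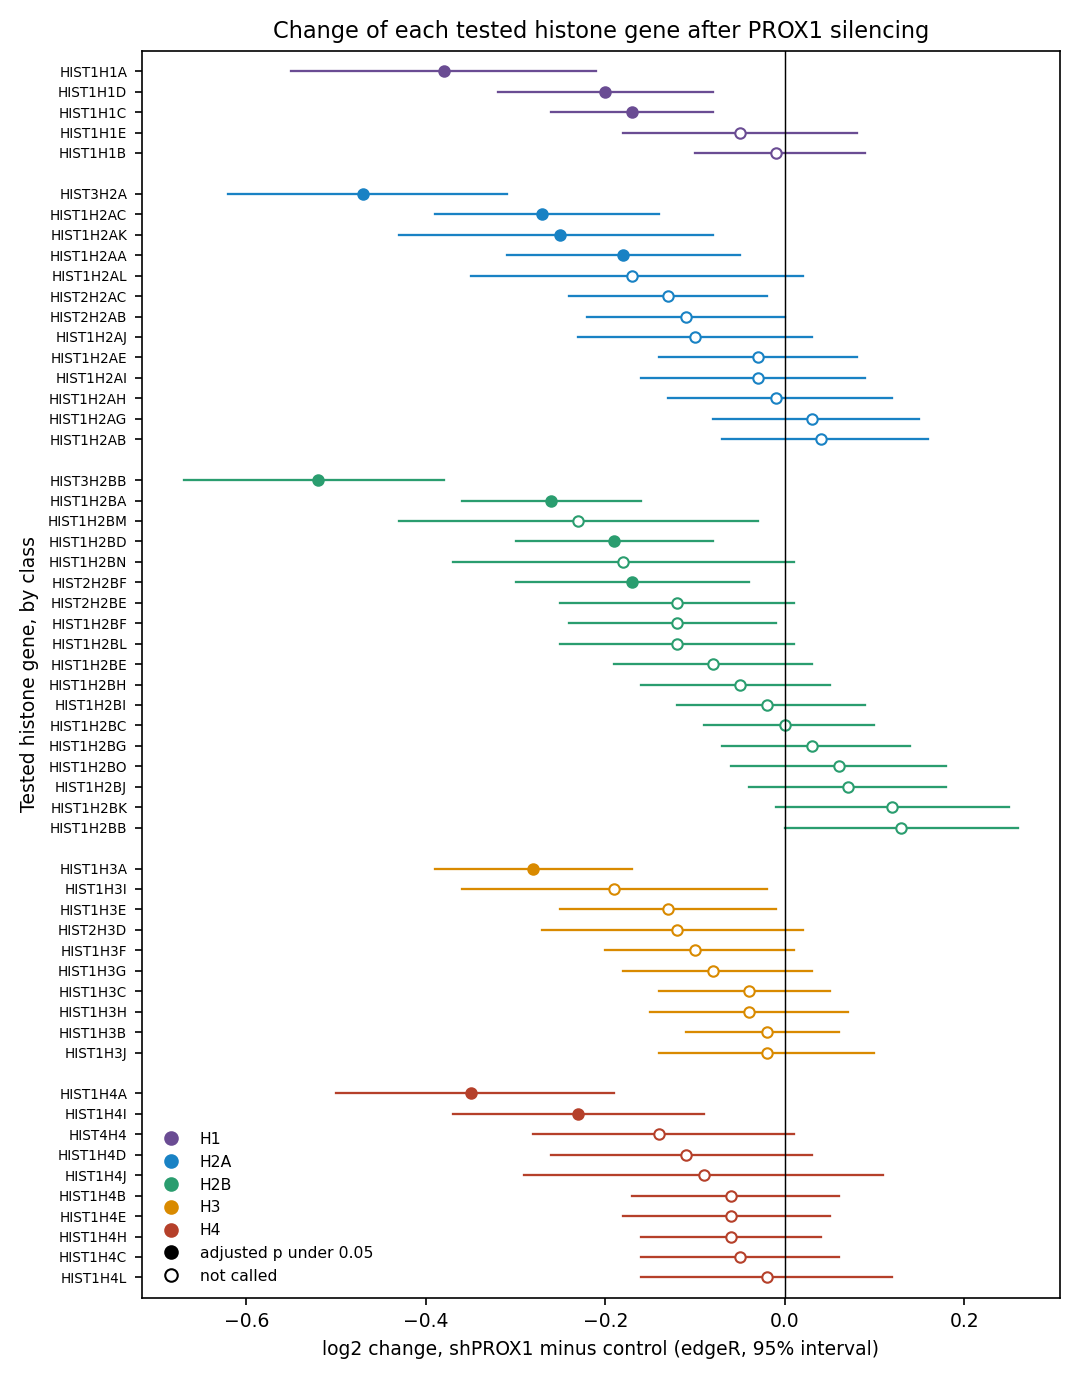
The log2 change (shPROX1 minus control) of each of the 56 tested histone genes with its 95% interval, grouped by class, with filled points for an adjusted p under 0.05. The 14 filled points all lie left of 0, and the points at the far left are HIST3H2BB and HIST3H2A.

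Of the 5 classes the linker histones had the largest share of falls, on few genes. Of 5 tested genes 3 were called lower (60.0%, against 17.9% of all tested genes), and the class median was −0.17. HIST1H1A, a somatic H1 of low level here, had 46.6, 56.0, 49.9 and 57.0 CPM in the shPROX1 libraries, against 77.7, 63.6, 72.1 and 64.3 CPM in the control libraries. All 4 shPROX1 values were below all 4 control values, and the log2 change was −0.38 ± 0.08 (SE; edgeR, adjusted p = 0.000812). HIST1H1C, the most abundant H1 gene, had 493, 470, 491 and 471 CPM with shPROX1, against 585, 557, 522 and 539 CPM in control. These groups did not overlap either, at a log2 change of −0.17 ± 0.05 (edgeR, adjusted p = 0.00519), and with an offset for GC content and length the adjusted p was 0.0558. HIST1H1D fell by 0.20 ± 0.06 on the log2 scale (edgeR, adjusted p = 0.00968), with an adjusted p of 0.0517 without shPROX1 replicate 4. The next most abundant H1 gene, HIST1H1B, had 389, 379, 408 and 395 CPM with shPROX1 and 424, 403, 376 and 401 CPM in control, and its change of −0.01 had a 95% interval of −0.10 to 0.09. HIST1H1E was not called either, at −0.05 (interval −0.18 to 0.08). The testis-specific H1 gene HIST1H1T was not tested, with 4 counts in the shPROX1 libraries together and 20 in the control libraries.

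H2A and H2B proteins pair as a dimer in the nucleosome. Falls were called in 4 of 13 tested H2A genes (30.8%) and 4 of 18 tested H2B genes (22.2%), against 17.9% of all tested genes. All shPROX1 values lay below all control values in 23.1% of H2A and 16.7% of H2B genes, against 17.9% of all tested genes. The class medians were −0.11 for H2A and −0.10 for H2B. HIST3H2BB and HIST3H2A, neighbours on chromosome 1 that are read away from each other, changed most in the family. HIST3H2BB had 66.8, 66.8, 71.8 and 59.7 CPM in the shPROX1 libraries, against 106, 102, 90.5 and 89.2 CPM in the control libraries. HIST3H2A had 76.3, 66.8, 74.5 and 78.8 CPM with shPROX1, against 118, 107, 103 and 90.4 CPM in control. For both genes all shPROX1 values lay below all control values. The log2 changes were −0.52 ± 0.07 for HIST3H2BB (69.5% of control; edgeR, adjusted p = 4.61e-06) and −0.47 ± 0.08 for HIST3H2A (72.3% of control; adjusted p = 3.96e-05). Of the genes flanking this pair, RNF187, a ubiquitin ligase gene, fell by 0.33 ± 0.06 (edgeR, adjusted p = 0.000226), and TRIM11 was not called at 0.20 ± 0.08 (adjusted p = 0.054). These flanking genes were looked up after the histone values were known.

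HIST1H2BA, known as a testis-type H2B gene, was the most abundant H2B gene of the family in RD cells by counts. It had 515, 532, 481 and 485 CPM in the shPROX1 libraries, against 645, 603, 614 and 587 CPM in the control libraries. The groups did not overlap, at a log2 change of −0.26 ± 0.05 (edgeR, adjusted p = 0.000138). Its partner HIST1H2AA, a testis-type H2A gene, had 155, 178, 151 and 165 CPM with shPROX1 and 209, 181, 184 and 173 CPM in control, with 1 shPROX1 library inside the control range. Its change of −0.18 ± 0.06 was called (edgeR, adjusted p = 0.0325), but 5 of the 8 fits that left out 1 library gave an adjusted p of 0.0507 to 0.119, and with the GC and length offset it was 0.109. None of the 50-base words of either gene occurs in another gene.

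The 2 most abundant H2A genes did not pass the test. HIST1H2AG changed by 0.03 (95% interval −0.08 to 0.15) and HIST1H2AE by −0.03 (−0.14 to 0.08). HIST1H2BG, next to HIST1H2BA in level among H2B genes, changed by 0.03 (−0.07 to 0.14). HIST1H2AC had 184, 204, 196 and 198 CPM in the shPROX1 libraries, against 255, 255, 229 and 216 CPM in the control libraries, and fell by 0.27 ± 0.06 on the log2 scale without overlap (edgeR, adjusted p = 0.00118). HIST1H2BD had 213, 194, 212 and 196 CPM with shPROX1, against 244, 220, 241 and 241 CPM in control, and fell by 0.19 ± 0.05 (edgeR, adjusted p = 0.00586). HIST2H2BF (−0.17 ± 0.06, adjusted p = 0.045) and HIST1H2AK (−0.25 ± 0.08, adjusted p = 0.0234) were also called, with overlapping groups. Neither call is firm. For HIST2H2BF the adjusted p was 0.0713 to 0.154 without any 1 of control replicates 2, 3 and 4 or shPROX1 replicates 1, 2 and 4, and 0.0544 to 0.0722 with no filter on low counts, with a filter at 1 CPM and in DESeq2. HIST1H2AK lies wholly within exons of HIST1H2BN on the opposite strand, which alone makes all of its 50-base words shared when both strands are read. The adjusted p of HIST1H2AK was 0.0593 in DESeq2, 0.167 with the GC and length offset, 0.0657 without shPROX1 replicate 1, 0.0874 without shPROX1 replicate 2, 0.0664 without control replicate 1 and 0.0675 without control replicate 2. Of HIST2H2BF, 26.9% of the words are shared. At the other end, HIST1H2BB had the highest value of the family, 0.13 (interval 0.00 to 0.26, edgeR, adjusted p = 0.108), followed by HIST1H2BK at 0.12. Neither was called, and 74.1% of the words of HIST1H2BK are shared. HIST1H2BB was called higher without control replicate 1 (0.18; edgeR, adjusted p = 0.012) and with the GC and length offset (0.20, adjusted p = 0.00203).

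H2A and H2B genes often sit head to head over one shared promoter, and 11 such pairs were found, with 219 to 331 bases between their starts. Both genes were tested in 9 pairs. Both fell in 2, HIST3H2A with HIST3H2BB and HIST1H2AA with HIST1H2BA, and neither was called in 6. In the remaining pair HIST1H2AC fell (−0.27), while HIST1H2BC stood at 0.00 with an interval of −0.09 to 0.10, at 328, 325, 321 and 334 CPM with shPROX1 and 346, 322, 326 and 333 CPM in control. The difference between the members of that pair was not tested.

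RefSeq promoter windows (GRCh38.p14, 250 bases before to 50 after the start) were found for 66 of the 71 genes, and were searched on both strands for 4 short motifs known from histone promoters. The octamer ATTTGCAT, the site of the OCT1 factor in H2B promoters, stood in 14 of 18 H2B windows (77.8%) and 11 of 16 H2A windows (68.8%), in 0 H1, H3 or H4 windows, and in 1.70% of 35046 other promoters. The H1 box AAACACA stood in 6 of 6 H1 windows, against 5.63% of other promoters. CCAAT was in each of the H1, H2A, H2B and H3 windows, in 23.1% of H4 windows and in 34.5% of other promoters. TATAAA was in 3 of 6 H1 windows and in 75.0% of H2A, 66.7% of H2B, 76.9% of H3 and 53.8% of H4 windows, against 11.4% elsewhere. With both strands searched, a window can be counted for the TATAAA of its head-to-head partner. HIST1H2BC, HIST1H2BM and HIST1H2BO hold that of HIST1H2AC, HIST1H2AJ and HIST1H2AM, so these shares are not shares of genes with their own TATA box. The following stretches, with the motif in capitals and the coordinates of the whole stretch, show how a single octamer lies in the window of both genes of a head-to-head pair, read on opposite strands, for a pair in which both genes fell and for the pair in which 1 did.
HIST1H2BA, chr6:25726663-25726690, plus strand: gaatcgcctcATTTGCATtcacgccact
HIST1H2AA, chr6:25726663-25726690, minus strand: agtggcgtgaATGCAAATgaggcgattc
HIST1H2BC, chr6:26124032-26124059, minus strand: ttcatacctcATTTGCATagctctgccc
HIST1H2AC, chr6:26124032-26124059, plus strand: gggcagagctATGCAAATgaggtatgaa
In the H1 class, HIST1H1B and HIST1H1E hold the H1 box on the sense strand, and neither gene was called. HIST1H1C and HIST1H1D hold it on the sense strand and HIST1H1A in reverse, and each of these genes fell. The match starts at −119 from the gene start in HIST1H1C and HIST1H1D, and at −183 in HIST1H1A. The stretches of HIST1H1C and HIST1H1A follow.
HIST1H1C, chr6:26056573-26056599, minus strand: gaggtggaacAAACACAacttgggagc
HIST1H1A, chr6:26017954-26017980, minus strand: gctttttctgTGTGTTTgcttgcgttg
The octamer was not found in the windows of HIST3H2A and HIST3H2BB. A motif match describes the sequence and is no evidence of binding.

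H3 and H4, which form the core tetramer, had the fewest falls: 1 of 10 tested H3 genes and 2 of 10 tested H4 genes, although all 20 had log2 changes below 0 (14 of 20 with the GC and length offset, 17 without control replicate 1). The medians were −0.09 for H3 and −0.08 for H4. HIST1H3A had 159, 169, 153 and 161 CPM in the shPROX1 libraries, against 210, 191, 202 and 188 CPM in the control libraries, with no overlap and a log2 change of −0.28 ± 0.05 (edgeR, adjusted p = 0.000296). HIST1H4A had 85.4, 101, 99.3 and 87.4 CPM with shPROX1, against 137, 104, 115 and 125 CPM in control. It fell by 0.35 ± 0.08 on the log2 scale (edgeR, adjusted p = 0.000912). HIST1H4I had 156, 156, 160 and 164 CPM with shPROX1, against 221, 183, 188 and 168 CPM in control, and fell by 0.23 ± 0.07 (edgeR, adjusted p = 0.00877). Both H4 genes had non-overlapping groups. The most abundant genes of these classes were not called. HIST1H3B had 511, 529, 532 and 503 CPM with shPROX1 and 529, 528, 525 and 561 CPM in control (−0.02, interval −0.11 to 0.06), and HIST1H3H changed by −0.04 (−0.15 to 0.07). HIST1H4C had 411, 433, 424 and 418 CPM with shPROX1 and 485, 444, 446 and 401 CPM in control (−0.05, interval −0.16 to 0.06), and HIST1H4H changed by −0.06 (−0.16 to 0.04). HIST1H4D (−0.11) was called lower only without control replicate 4 (−0.20; edgeR, adjusted p = 0.00577).

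Position along the HIST1 cluster set some of the falling genes together. In chromosomal order the first 5 genes, HIST1H2AA, HIST1H2BA, HIST1H1A, HIST1H3A and HIST1H4A, were all called lower, with log2 changes of −0.18 to −0.38. The next 5, HIST1H4B (−0.06), HIST1H3B (−0.02), HIST1H2AB (0.04), HIST1H2BB (0.13) and HIST1H3C (−0.04), were not called. Non-histone genes also looked up for this region, TRIM38 (0.11), U91328.1 (0.43) and HFE (−0.05), were not called (edgeR, adjusted p = 0.402, 0.284 and 0.88). Divided at gaps over 250 kb, the cluster forms 4 blocks. The first, with HIST1H2AA and HIST1H2BA, had 2 of 2 tested genes called, and the second, HIST1H1A to HIST1H4H, 7 of 27. The third, HIST1H2BJ to HIST1H2AH, had 1 of 5, and the fourth, HIST1H2BL to HIST1H2BO, 1 of 14. The medians of the 4 blocks were −0.22, −0.06, 0.03 and −0.10. The HIST1 cluster as a whole had 11 of 48 tested genes called lower (22.9%), against 17.9% of all tested genes. This arrangement along the cluster was noticed in the values and was not tested. Of the other clusters, HIST2 had 1 of 5 tested genes called (median −0.12), HIST3 both of its 2, and HIST4H4 was not called at −0.14, except without control replicate 4 (−0.20; edgeR, adjusted p = 0.0216).

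**Figure D3:**
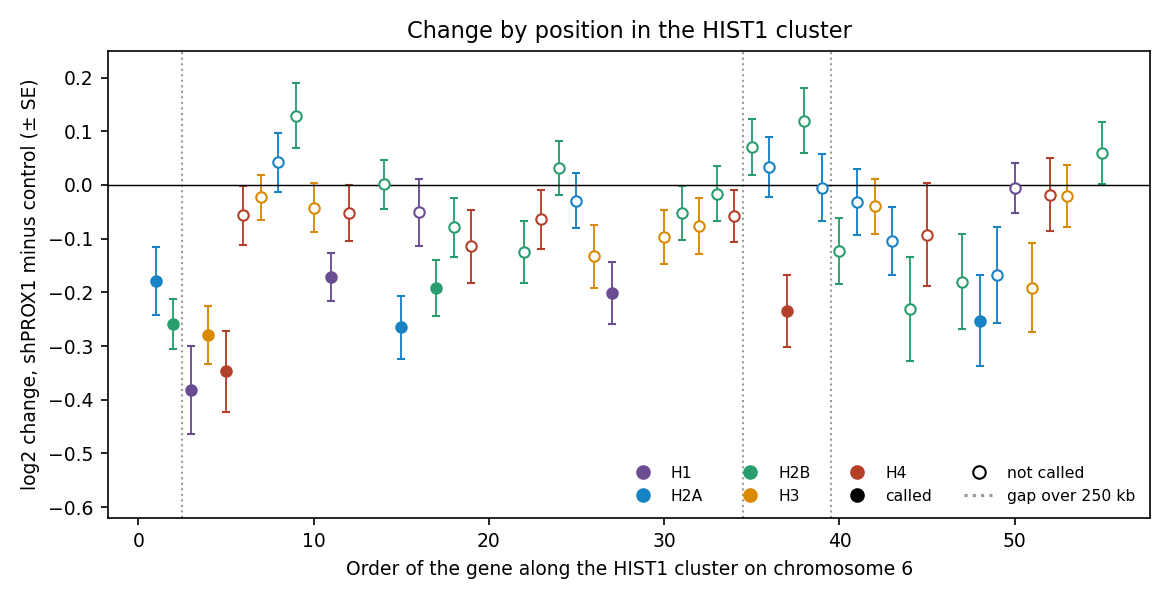
The log2 change (shPROX1 minus control, ± SE) of the tested HIST1 genes in chromosomal order, coloured by class, with filled points for called genes and dotted lines at gaps over 250 kb. The first 5 points are filled and lie between −0.18 and −0.38, and the next 5 are open.

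Levels between genes were compared per kilobase of annotated exon. On this scale the 56 tested genes had a median of 344 CPM per kb and ran from 8.43 for HIST1H2BN, whose annotation includes long exons, to 1280 for HIST1H3B. HIST1H4D (1230), HIST1H2BA (1080), HIST1H3C (1030) and HIST1H4C (995) came next. HIST1H2BA averaged 975 CPM per kb with shPROX1 and 1190 in control, so that it was called lower while the genes next to it in level were not. HIST1H3B averaged 1260 with shPROX1 and 1300 in control, and HIST1H4D 1170 with shPROX1 and 1280 in control. The class medians were 544 for H1, 381 for H2A, 366 for H3, 297 for H4 and 235 for H2B. Genes annotated with long 3′ extensions are set low on this scale, since the exon length includes bases that the stem-loop form lacks.

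**Figure D4:**
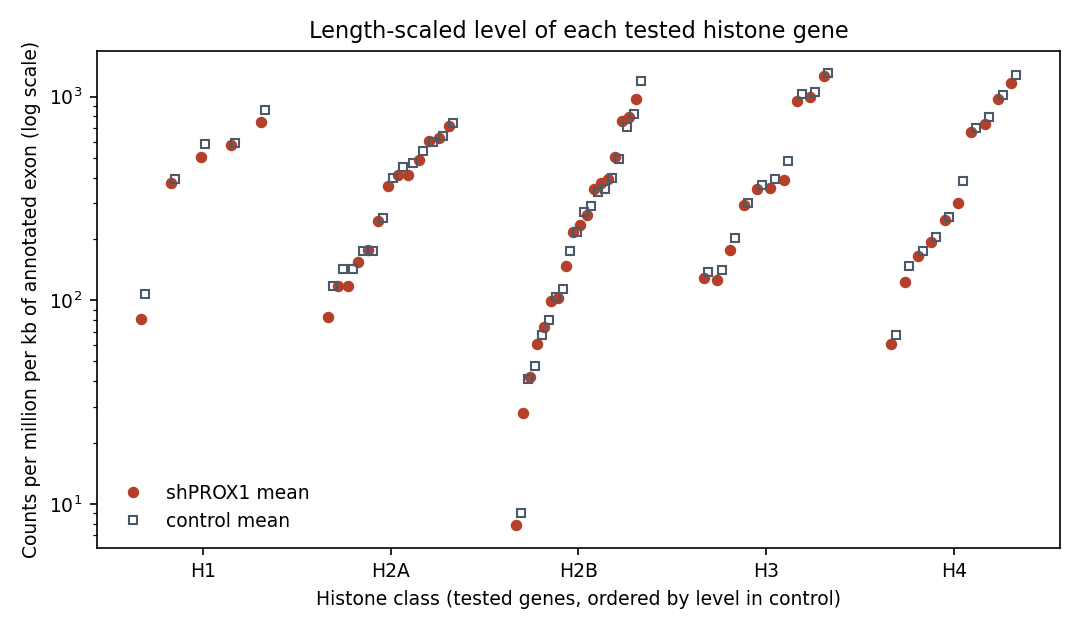
Mean level of each tested histone gene per kb of annotated exon on a log scale, by class, with shPROX1 as filled circles and control as open squares. Mean levels over all libraries run from 8.43 to 1280 CPM per kb, and the change between groups is small beside that range.

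Whether the counts came from stem-loop mRNAs or from polyadenylated forms could not be told from gene totals. The labels name total RNA and a strand-keeping library kit, and a poly(A) selection or a ribosomal RNA depletion is not given in the sources used here. Genes were therefore divided by annotation. The 26 genes with more than 1 exon or a 3′ UTR over 150 bases summed to 0.504% ± 0.00541 of counts with shPROX1 and 0.542% ± 0.0258 in control (SD, n = 4 each), and the 45 others to 0.811% ± 0.0107 with shPROX1 and 0.876% ± 0.0399 in control. Neither pair of groups overlapped, and the log2 ratios were −0.105 for the extended genes and −0.111 for the others. Of the extended genes 6 of 22 tested fell (27.3%), and of the others 8 of 34 (23.5%), against 17.9% of all tested genes. Each of the 2 sets had a median of −0.10. Of the 71 genes, 35 have no annotated 3′ UTR, and all of these but HIST1H3J are among the 45 others. Lack of an annotated extension therefore does not show that a gene has no longer form. The difference between these sets of genes was not tested.

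Some other RNAs without a poly(A) tail were counted, and their level varied between libraries. Of a list of 29 genes for small nuclear, signal recognition particle and similar RNAs, 9 were at 0 in every library, among them RN7SK, RPPH1, RN7SL1, RNU7-1 and both identifiers of RMRP. RN7SL2, the RNA core of the signal recognition particle, held 75.3% to 89.6% of the list's counts in each library. The list made up 1.89%, 1.81%, 1.59% and 2.07% of counts in the shPROX1 libraries, against 2.47%, 2.13%, 1.99% and 1.14% in the control libraries. The groups overlapped, and controls were spread widely, with control replicate 1 highest and control replicate 4 lowest. These were also the controls with the highest and lowest histone shares. In the shPROX1 group the order differed: replicate 3 had the lowest list share (1.59%) and the highest histone share (1.33%). RN7SL2 alone averaged 16200 CPM with shPROX1 and 16000 CPM in control. RNU4-2, a spliceosomal RNA, had 525, 391, 286 and 432 CPM with shPROX1, against 1710, 462, 715 and 362 CPM in control. Of 15 tested genes 5 fell (33.3%, against 17.9% of all tested genes), with a median of −0.42. Only 1, SCARNA7 (0.22), rose (6.67%, against 17.3%). In 0 of the 15 did all shPROX1 values lie below all control values, against 17.9% of all tested genes. The falls were RNU5A-1 (−1.57), RNU5B-1 (−1.42), RNU6ATAC (−1.23), RNU4-2 (−0.97) and RNU4-1 (−0.88), and without control replicate 1 the median was 0.02 with 2 lower calls. Without that library the values were −0.31 for RNU6ATAC, −0.30 for RNU4-2 and −0.25 for RNU4-1 (adjusted p = 0.515, 0.114 and 0.207, edgeR). RNU6ATAC also lost its call without shPROX1 replicates 1, 2 or 3 or control replicate 3 (adjusted p = 0.0591 to 0.156), RNU4-1 without shPROX1 replicates 2 or 3 (0.0518 and 0.0558), and SCARNA7 without shPROX1 replicate 2 or control replicate 2 (0.0802 and 0.0599). Neither DESeq2 nor limma voom called RNU4-1, RNU4-2, RNU5B-1 or RNU6ATAC. The part of this variation in the histone result was not tested; with small structural and mitochondrial RNA genes removed, 17 histone genes fell, and without control replicate 1, 15 fell and 1 rose.

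Of the 71 genes, 15 were not tested, and most of these may not have been counted in full. For 11 of them more than 80% of the 50-base words, read on both strands, occur in another gene, and these had 0 to 18 counts each over the 8 libraries. In 7 of the 11, HIST2H4A, HIST2H4B, HIST2H3A, HIST2H3C, HIST2H2AA3, HIST2H2AA4 and HIST1H4K, no exon overlaps another gene on the same strand. Their words recur elsewhere in the genome, so that reads can match several places. In the other 4, HIST2H3PS2, HIST1H3D, HIST1H2AD and HIST1H2AM, 88.0% to 100% of the exon bases overlap another gene on the same strand (AL031777.3 for HIST1H3D and HIST1H2AD, HIST1H3J for HIST1H2AM), where a read cannot be given to 1 gene. For HIST1H3J, which was tested and not called, 44.6% of exon bases overlap in this way. The last 4 of the 15 share no words: HIST1H1T, the testis-type H3 gene HIST3H3 (1 count), and HIST1H4F and HIST1H4G (0 counts, which allows up to 0.617 to 0.801 CPM by library). A low count in those 11 is thus no measure of their mRNA. Another 4 genes with more than 80% of words shared, HIST2H3D, HIST1H2AJ, HIST1H4J and HIST1H2AK, were counted and tested, at means of 51.0 to 285 CPM. Among the tested genes, 12 of 43 with under 10% of words shared fell (27.9%), against 17.9% of all tested genes. Of those with 10% or more shared, 2 of 13 fell (15.4%). The family sum without all 24 genes with 10% or more shared had the same log2 ratio of −0.11.

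**Figure D5:**
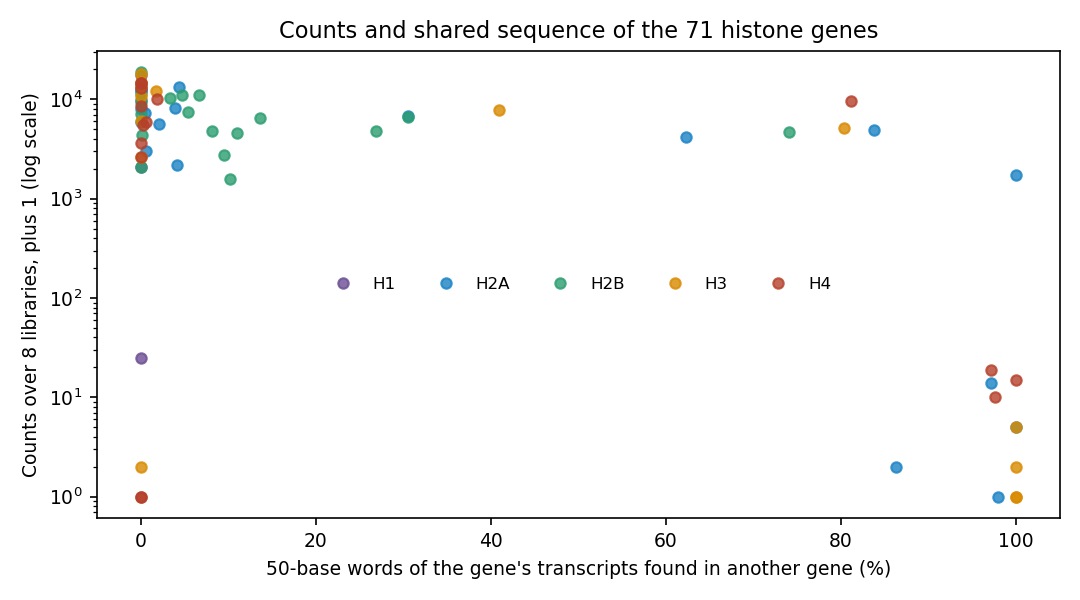
Counts of each of the 71 histone genes over 8 libraries (plus 1, log scale) against the percentage of its 50-base words that occur in another gene, coloured by class. Genes at the lower right are the 11 untested genes with more than 80% shared, all at 18 counts or fewer. The 4 tested genes with more than 80% shared lie above them.

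The replication-independent histones, whose mRNAs mostly carry poly(A) tails and are also made outside DNA replication, moved in both directions, with most calls lower. Of 19 listed, 11 were tested, with a median of −0.24. Among the tested genes 6 fell (54.5%, against 17.9% of all tested genes) and 1 rose (9.09%, against 17.3%). Those that fell included H1FX (−0.65), H1F0 (−0.39), both linker variants, H2AFJ (−0.46), H2AFY2 (−0.30), a macroH2A gene, and H3F3A (−0.37), with an adjusted p of 0.0815 for H2AFJ without control replicate 4 (edgeR). H3F3A and H3F3B encode the same replacement H3 protein, and H3F3B rose (0.27 ± 0.05; edgeR, adjusted p = 5.18e-05), with 503, 538, 504 and 521 CPM with shPROX1 against 450, 433, 440 and 412 CPM in control. H2AFZ, the most abundant variant gene that was not called, stood at 0.07. The summed variants took 0.205% ± 0.00205 of counts with shPROX1 and 0.208% ± 0.00523 in control, with overlap. The difference in call rate between variants and canonical genes was not tested.

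Among genes that make, cut and store histone mRNA and protein, and among genes of DNA replication, members were called in both directions, at total rates below that of all tested genes. In the list for histone mRNA processing and histone supply, 10 of 53 tested genes rose (18.9%, against 17.3% of all tested genes) and 4 fell (7.55%, against 17.9%), with a median of 0.06. In all 26.4% were called, against 35.2% of all tested genes. SLBP had 144, 139, 139 and 138 CPM in the shPROX1 libraries, against 123, 116, 123 and 121 CPM in the control libraries, and rose by 0.23 ± 0.05 without overlap (edgeR, adjusted p = 0.000999). SRRT (0.33), ERI1, the exonuclease that trims the stem-loop end (0.30), the chromatin assembly subunit CHAF1B (0.28), the cyclin E gene CCNE2 (0.27) and the Sm protein gene SNRPD3 (0.25) also rose. The call of CCNE2 was lost without shPROX1 replicates 2 or 3 or control replicates 1, 3 or 4 (edgeR, adjusted p = 0.0568 to 0.0847), and that of CHAF1B without shPROX1 replicates 1 or 4 or control replicates 3 or 4 (0.0647 to 0.137). CASP8AP2, a component of histone locus bodies, fell (−0.29), and NPAT, the coactivator of histone genes in those bodies, was not called, at −0.01, with 59.1, 54.1, 54.4 and 55.3 CPM with shPROX1 and 51.8, 62.4, 54.4 and 59.4 CPM in control. NAP1L1, a histone chaperone, stood at 0.03. Of 56 tested DNA replication genes 13 rose (23.2%) and 4 fell (7.14%), 30.4% in all, with a median of 0.05. These included the fork protection gene TIPIN (0.53), the polymerase subunit POLD2 (0.45), the nucleotide supply genes TK1 (0.33) and RRM2 (0.31) and UHRF1 (0.29), which rose. Another polymerase subunit, POLD3, fell (−0.28), and the helicase subunit MCM7 (0.01) was not called. Summed, they took 0.897% ± 0.00928 of counts with shPROX1 and 0.865% ± 0.011 in control, with no overlap between groups. The lists were tested in the same fit as the histone genes, and no test compared them with each other.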

How the data were processed

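Total RNA of 8 RD libraries was sequenced with a kit that keeps strand, per the labels' protocols. The deposited tables are raw read counts per gene, which the authors made with FastQC, HISAT2 and HTSeq on GRCh38 (hg38), per the submitters' processing notes, which also name DESeq2. Versions, annotation, strand setting and the treatment of reads that match several places are not given in the sources used here. Groups and replicate numbers came from the labels. Of 58302 identifiers, 58039 matched GENCODE 29, which gave symbols, coordinates (1-based), UTRs and transcripts.

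All 8 libraries entered 1 model of the counts in edgeR 4.0.16 (R 4.3.3) with TMM scaling and the filterByExpr filter. Its sole term was group, the test was the quasi-likelihood F test, and p-values were adjusted by Benjamini-Hochberg over all tested genes (threshold 0.05). CPM (counts per 1000000) used raw library totals, and class sums were not tested. The biological coefficient of variation was 6.41%. No 2 libraries of a group looked like copies: chi-square values of the 12 pairs were 1.19 to 6.34 times their degrees of freedom. The series calls the libraries of a group biological replicates, but nothing in the labels says whether they came from separate cultures. The p-values therefore measure the spread between these samples. A count of 0 allows up to 3 counts, and such limits cover counting error only. Shared sequence was the share of a gene's 50-base transcript words found in another gene.

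The histone genes and the comparison lists were chosen with earlier results of these data known. Named histone genes were the 12 called genes of largest change and the 2 most abundant of each class, and HIST2H2BF, HIST1H2BB, HIST1H2BK, HIST1H2BC, HIST1H1E and genes described by position, pair or level were added. Alternatives were RLE and upper-quartile factors, other filters on low counts, DESeq2 1.42.0, limma 3.58.1 (voom), a replicate block, an adjusted p threshold of 0.01, and each library left out. An offset for GC content and length, a table without mitochondrial and small structural RNA genes, and protein-coding library totals were added after seeing the data. The fit was also run on simulated counts in which all genes shared the same spread and few changed. That is a simpler case than these data.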

Additional observations from a re-analysis of the deposited data

Results flagged for a closer look

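Among 114 groups of 4 libraries examined, 8 had 1 library far from the other 3, where chance gives about 1 in 20. HIST1H2BD was at 220 CPM in control replicate 2, below 241 to 244 CPM in the other controls. HIST1H3B was at 561 CPM in control replicate 4, above 525 to 529 CPM. HIST1H3H was at 496 CPM in control replicate 1, above 436 to 442 CPM. The summed H1 genes were at 1615 CPM in shPROX1 replicate 3, above 1514 to 1526 CPM in the other shPROX1 libraries, and below all controls.

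Outside the histone genes, CCNE2 was at 36.7 CPM in control replicate 2, above 29.4 to 30.5 CPM. TIPIN was at 64.6 CPM in control replicate 3, above 56.7 to 57.7 CPM. POLD3 was at 59.1 CPM in shPROX1 replicate 1, above 44.0 to 45.3 CPM in the other shPROX1 libraries and inside the control range, and UHRF1 was at 878 CPM in shPROX1 replicate 4, above 829 to 835 CPM.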

How the results depend on the processing

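The count of falling histone genes stayed between 11 and 18 over all alternatives run, against 14. DESeq2 called 12 and limma voom 14, and all were lower. In 2 settings HIST1H2BB was called higher beside the falls: the offset for GC content and length (12 lower, 1 higher) and the fit without control replicate 1 (15 lower, 1 higher). HIST2H2BF lost its call in 10 of 18 alternatives, HIST1H2AA and HIST1H2AK each in 7, HIST1H1C with the GC and length offset and HIST1H1D without shPROX1 replicate 4. Of 71 genes examined one by one, histone genes and others named in the text, 44 were called. None of these 44 changed sign in an alternative, and 14 lost the call in at least 1. Of the 27 not called, 14 changed sign (values rounded to 2 decimals) and 7 were called in at least 1 alternative. RN7SL2 (0.04) was called lower without control replicate 4 (−0.14; edgeR, adjusted p = 0.0403), and its values with 1 library left out ran from −0.14 to 0.13.

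Replicate numbers did not pair the libraries: the correlation of same-numbered libraries' deviations ran from −0.05 to 0.05, and 0 shPROX1 libraries correlated best with their own number. With the replicate block, 16 histone genes and 4187 of all genes were called. The count for other RNAs without a poly(A) tail, 6 genes, was 10 with no filter, 2 with DESeq2, 2 with limma voom and 2 at an adjusted p under 0.01, and 3 to 12 with 1 library left out (3 without shPROX1 replicate 2, 12 without control replicate 4); the cause was not tested. It has no value with small RNA genes removed, since these are the list itself. The DNA replication count of 17 was 11 at an adjusted p under 0.01, a stricter threshold by construction. At 3747090 to 4865161 counts a library, the 95% intervals of the most abundant uncalled histone genes spanned −0.16 to 0.15 on the log2 scale.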
